A study of Mus musculus with 15 samples.

Results

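Stretches of the mouse genome far from gene starts whose DNA was partly methylated in wild type progenitors were followed across 4 genotypes of bone marrow progenitors. They were windows of 1 kb on autosomes of build mm9, more than 3 kb from every annotated start of a transcript, inside or outside genes, chosen by their mean methylation level in the 4 wild type libraries, which had to be 20% to 80%. Of 29251 windows with at least 3 CpGs covered by 10 or more reads in all 15 libraries, 12550 lay that far from a start and 2669 met the bounds on the level. Among the other distal windows, 2050 were under 20% and 7831 over 80% in wild type. The level of a window is its methylated reads as a percentage of all its reads, both strands added. Since the wild type levels chose the windows, comparisons that use a wild type library are given below as description only.

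The assay was reduced representation bisulfite sequencing (RRBS), in which bisulfite converts unmethylated cytosines of restriction fragments rich in CpG. All mice were of the C57BL/6 strain, and no label used here gives their ages. Wild type cells carried Mx1-cre+ with Dnmt3af/f, Dnmt3a knockout cells Mx1-cre+ with Dnmt3a-/-, and Idh2 mutant cells Mx1-cre- with Dnmt3af/f and Idh2 R140Q. Each of these 3 genotypes was sorted as granulocyte-macrophage progenitors (GMP: Lin-cKit+, Sca1-, CD34+, Cd16/32+) and as megakaryocyte-erythroid progenitors (MEP: the same but CD34- and Cd16/32-), giving 6 groups of 2 libraries. Double mutant cells (Mx1-cre+, Dnmt3a-/-, Idh2 R140Q) were malignant progenitors sorted by the MEP surface markers, with 3 libraries, and were set against MEP. Mx1-cre is driven by an interferon-inducible promoter that acts in blood and in other tissues, and the Idh2 mutant cells lack it, so the single mutants differ in Cre as well as in the mutation. Sample titles carry the tags GFP (wild type and knockout) and M140 (both Idh2 R140Q groups), which the labels do not explain. The labels call the libraries biological replicates without stating separate animals, so the p-values measure the spread between these samples, which may in part be technical. No expression was measured, so the sorted identities could not be checked against marker genes.

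In mammalian cells most CpGs far from gene starts are methylated, while CpG-dense starts are mostly free of methylation. Intermediate levels away from starts are known from enhancers and other sites bound by transcription factors, from imprinted regions, and from sites at which the cells of a population differ. Dnmt3a places methylation on unmethylated DNA. Idh2 R140Q, an altered mitochondrial enzyme known from leukaemia, makes 2-hydroxyglutarate, which inhibits the TET enzymes that start the removal of methylation. A level is an average over reads, so methylation of part of the cells and of 1 allele in every cell cannot be told apart.

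Sequences of 13 windows are shown because the results turn on them: the largest differences of the comparisons, windows of Prdm16, Msi2 and Dnmt3a, and 1 window that barely varied. Each is the stretch of at most 300 bases of its window that holds the most measured CpGs, on the plus strand of mm9, with the measured CpGs in capitals. The first 2 were highest in cells with both mutations or with Idh2 R140Q.
Begain (chr12:110309379-110309651): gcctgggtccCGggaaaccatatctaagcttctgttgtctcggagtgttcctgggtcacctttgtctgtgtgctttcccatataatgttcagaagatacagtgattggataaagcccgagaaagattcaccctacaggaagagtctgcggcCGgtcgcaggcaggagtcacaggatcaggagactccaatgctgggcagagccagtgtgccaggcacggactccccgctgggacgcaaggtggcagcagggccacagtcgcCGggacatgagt
Lrrfip1 (chr1:92914250-92914382): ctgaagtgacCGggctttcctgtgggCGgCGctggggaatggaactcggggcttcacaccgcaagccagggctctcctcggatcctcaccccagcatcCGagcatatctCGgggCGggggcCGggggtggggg

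The following window, in an exon of the gene A930038B10Rik outside annotated coding sequence, was higher in double mutant cells than in either single mutant.
A930038B10Rik (chr14:35583022-35583171): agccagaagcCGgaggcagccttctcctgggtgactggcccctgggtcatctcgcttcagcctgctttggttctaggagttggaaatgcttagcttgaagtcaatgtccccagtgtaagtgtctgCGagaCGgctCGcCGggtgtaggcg

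These windows were low in double mutant cells.
Fbxo31 (chr8:124094698-124094822): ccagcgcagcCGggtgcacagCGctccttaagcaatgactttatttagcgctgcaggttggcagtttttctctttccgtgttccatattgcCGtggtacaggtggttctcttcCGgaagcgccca
Il10 (chr1:132907303-132907339): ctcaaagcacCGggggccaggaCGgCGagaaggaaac
Ccdc6 (chr10:69615179-69615304): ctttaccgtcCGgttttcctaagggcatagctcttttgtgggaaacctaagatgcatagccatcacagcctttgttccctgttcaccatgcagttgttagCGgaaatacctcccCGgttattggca
Prdm16 (chr4:153960449-153960573): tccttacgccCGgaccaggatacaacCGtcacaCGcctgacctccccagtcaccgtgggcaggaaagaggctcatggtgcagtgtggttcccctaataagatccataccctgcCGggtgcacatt
Msi2 (chr11:88552342-88552492): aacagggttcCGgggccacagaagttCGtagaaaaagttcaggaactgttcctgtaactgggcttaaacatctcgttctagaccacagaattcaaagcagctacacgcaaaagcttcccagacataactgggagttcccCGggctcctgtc
Dnmt3a (chr12:3871805-3871929): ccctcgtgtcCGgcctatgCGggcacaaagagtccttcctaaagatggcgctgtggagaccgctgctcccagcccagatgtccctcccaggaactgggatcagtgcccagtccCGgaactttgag

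The next windows differed between MEP and GMP, upwards for Kdelc2 and Snx18 and downwards for Kcnn4.
Kdelc2 (chr9:53198458-53198581): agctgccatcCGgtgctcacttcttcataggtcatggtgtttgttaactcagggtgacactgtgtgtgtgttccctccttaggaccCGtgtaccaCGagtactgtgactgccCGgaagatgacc
Snx18 (chr13:114404143-114404279): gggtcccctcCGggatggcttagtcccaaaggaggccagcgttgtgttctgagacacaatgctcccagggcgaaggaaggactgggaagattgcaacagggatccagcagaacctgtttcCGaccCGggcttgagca
Kcnn4 (chr7:25162128-25162253): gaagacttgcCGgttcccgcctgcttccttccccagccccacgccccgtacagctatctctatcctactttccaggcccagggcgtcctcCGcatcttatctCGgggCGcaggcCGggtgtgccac

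The last window kept nearly the same level in every library.
Hs3st5 (chr10:35856136-35856358): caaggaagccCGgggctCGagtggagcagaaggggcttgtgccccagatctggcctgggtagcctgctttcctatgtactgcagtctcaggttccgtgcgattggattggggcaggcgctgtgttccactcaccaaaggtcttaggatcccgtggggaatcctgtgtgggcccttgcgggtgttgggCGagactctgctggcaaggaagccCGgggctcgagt

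The files held 19306705 to 35204906 reads over cytosines per library, and the CpGs used had a median of 30 to 51 reads. Over the distal intermediate windows the median number of reads per window was 123 to 217 by library. Wild type libraries stood apart from the other 11 in sex chromosome reads, with 54.0 to 57.5 Y chromosome reads in every 1000000 autosomal reads against 199 to 386, and X chromosome reads of 2.21% to 2.25% against 1.17% to 1.47% of autosomal reads. The part of this split in comparisons with wild type was not tested. Dnmt3a knockout MEP replicate 1 was lower than its partner over the members by 5.2 points on average (57.3% and 62.5%), the widest gap between libraries of 1 group. Several, but not all, results that rest on it are also given without it.

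The members were mostly outside genes and poor in CpGs. Of the 2669 windows, 1589 (59.5%) were intergenic, 782 (29.3%) in introns, 250 (9.37%) in coding exons and 48 (1.8%) in other exons. Their median distance to the nearest start was 21639 bases, close to the 21245 bases of highly methylated distal windows and longer than the 12629 bases of low ones. Median GC content was 49.4%, against 48.7% in highly methylated and 54.0% in low distal windows (under 20%). The ratio of observed to expected CpGs was 0.31, 0.32 and 0.47 in the same order. By base composition and distance the members thus resembled highly methylated distal windows more than low ones. They were scattered: 76 members bordered another member, and the longest run was 4 kb.

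Members with only intermediate CpGs outnumbered members that mixed low and high CpGs, but most members were neither. Of 10472 measured CpGs in the members, 60.3% were themselves at 20% to 80% in wild type, 28.5% were higher and 11.3% lower. All CpGs were intermediate in 571 windows (21.4%, beside 3.06% of all windows). In 307 windows (11.5%, beside 1.94%) at least 1 CpG under 20% was combined with at least 1 over 80%. The other members had at least 1 CpG beyond 1 bound and none beyond the other. Wild type levels chose the windows, so these shares are a description. The window near Hs3st5, which encodes a heparan sulfate sulfotransferase, was of the mixed kind. Its CpG at position 35856323 stood at 7.67% to 9.48% in the 7 groups and its CpG at position 35856347 at 91.0% to 94.3%. The window's level was 49.9% to 54.1% in the 15 libraries, on 692 to 3233 reads. Near the bounds of the rule, wild type means fell on either side of 20% or 80% by less than the spread between libraries. An intron window of Ctnnd2 just inside the lower bound had 24.6%, 16.9%, 19.1% and 19.5% in the wild type libraries, and an intergenic window near the small nuclear RNA gene U7 just outside it had 22.7%, 11.7%, 9.8% and 35.7%. At the upper bound, a window near Vmn2r-ps59 inside it had 78.4%, 82.4%, 77.5% and 81.6%, and an intron window of Ddr2 outside it 78.9%, 87.5%, 73.0% and 80.6%. In 1746 members all 4 wild type libraries were at 20% to 80%.

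Short motifs of blood transcription factors were counted in the whole 1 kb windows on both strands, as a description. The GATA motif AGATAA occurred in 38.9% of members and 29.2% of all windows, the RUNX motif TGTGGT in 51.1% and 43.7%, and the AP-1 motif TGANTCA in 22.3% and 18.3%. The ETS motif CAGGAAGT occurred in 9.37% of members and 6.73% of all windows, and the PU.1 motif GAGGAAGT, which differs in its first base only, in 7.19% and 6.18%. The core motif of the insulator protein CTCF, AGGGGGC, was less frequent in members (14.8%) than in all windows (23.8%), as was the MYB motif TAACGG (6.26% and 8.68%). Shares were closer for the motif GGGTGTGG of CACCC-box factors (9.52% and 9.69%), the E-box CAGCTG (45.6% and 43.5%) and the C/EBP motif TTGCNNAA (31% and 28.4%). Highly methylated distal windows, which have a similar base composition, had shares of 36.6% for GATA, 50.9% for RUNX, 21.7% for AP-1, 6.19% for ETS, 5.38% for PU.1, 11.8% for CTCF and 6.92% for MYB. Among the printed stretches, Prdm16 and Msi2 held the RUNX letters, Kcnn4 the GATA letters and Fbxo31 the C/EBP letters.

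Levels of the members varied more than those of other distal windows. The median range over 15 libraries was 33.6 points (quartiles 23.2 and 46.6). The SD between libraries of 1 group had a median of 6.9 points, and read counting alone would give 3.54. The SD was 3.28 points in high and 2.41 in low distal windows and 7.75 in intermediate windows within 3 kb of a start. Read counting alone would give 2.18, 1.32 and 3.45 points there. Counting error is largest at the middle levels that the rule chose, and its part in the difference between classes was not tested. In 654 members all 15 libraries stayed at 20% to 80%, and 100 other members had a library under 20% and another over 80%. Of these windows the widest range belonged to the one near Il10, at 99 points. The 5 smallest ranges, 3.08 to 4.44 points, belonged to windows near Dcn, Hs3st5, 2 small nuclear RNA genes and in an intron of Lace1, whose windows carried 408 to 13650 reads. In all, 119 members had at least 400 reads, a bound chosen after seeing the data, in every library, and their median range was 10 points against 34.6 in the other 2550. The part of depth in this difference was not tested.

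Averaged over the members, the groups with Idh2 R140Q were highest. The mean level of a library was 60.1% ± 0.233 in wild type GMP and 59.64% ± 2.086 in wild type MEP (SD, n = 2 each). It was 58.74% ± 0.714 in knockout GMP, 59.92% ± 3.677 in knockout MEP, 65.96% ± 1.994 in Idh2 mutant GMP and 64.15% ± 0.311 in Idh2 mutant MEP (n = 2 each). Double mutant libraries averaged 64.14% ± 1.2 (n = 3). Knockout libraries (57.3% to 62.5%) overlapped with wild type libraries (58.2% to 61.1%), while the 7 libraries with Idh2 R140Q lay at 62.9% to 67.4%, above every knockout and wild type library. No p-value is given for these means, since they average over chosen windows. By group mean, 730 members were over 80% in Idh2 mutant GMP, 710 in double mutant cells, 602 in Idh2 mutant MEP, 567 in knockout MEP and 404 in knockout GMP. By library, members under 20% numbered 191 and 164 in the knockout GMP libraries, 286 and 124 in knockout MEP, 154, 136 and 183 in the double mutant, 128 and 65 in Idh2 mutant GMP and 121 and 136 in Idh2 mutant MEP. Without knockout MEP replicate 1, the knockout MEP count of 124 was within the range of the Idh2 mutant libraries. The lower quartile was 38.1% to 48.5% in knockout libraries (from 41.3% without knockout MEP replicate 1) and 51.5% to 56.3% in Idh2 mutant GMP and MEP.

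**Figure D1:**
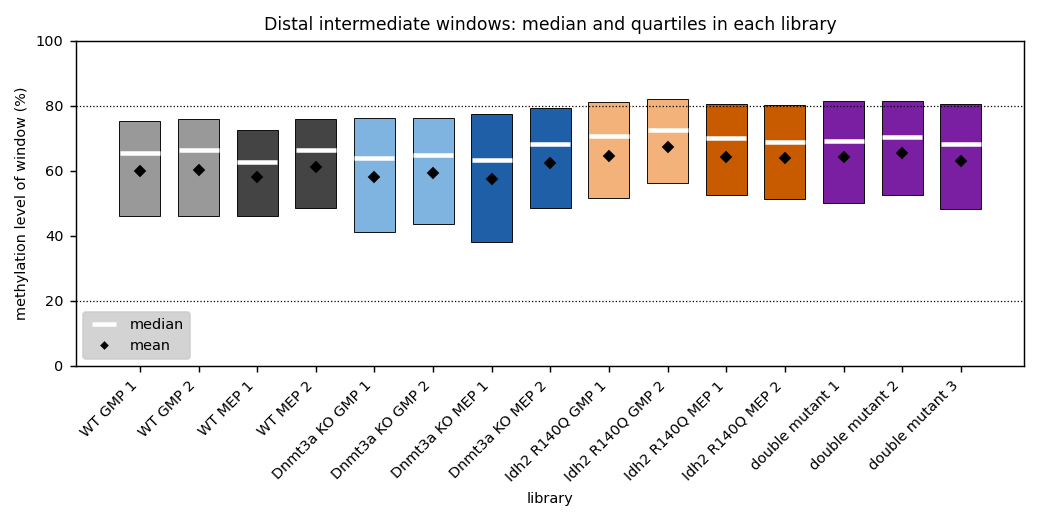
Methylation level (%) of the 2669 windows in each of the 15 libraries: boxes span the quartiles, white lines are medians, black diamonds are means, and dotted lines mark the 20% and 80% bounds of the rule. Boxes of libraries with Idh2 R140Q sit higher, with medians of 68.3% to 72.6%, and knockout medians run from 63.2% to 68.3%.

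Group means were compared by logistic regression on the reads of each window, with a quasi-binomial dispersion, in all 29251 windows. A window was called where the F test gave a Benjamini-Hochberg adjusted p under 0.05 over all windows and the group means differed by at least 10 percentage points. Differences below are in percentage points of the methylation level, and adjusted p-values are from this model.

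Idh2 R140Q against Dnmt3a knockout, over GMP and MEP together, gave differences nearly all in 1 direction. Of the members, 272 were higher in the Idh2 mutant and 12 lower. That is 10.6% of members, beside 3.05% of all 29251 windows (2.9% higher, 0.15% lower), 0.804% of high and 6.83% of low distal windows and 17% of intermediate windows near starts. The median difference over the members was 3.14 points, and over all windows 0.191 points. In the 272 windows the Idh2 mutant medians were 70.3% in GMP and 70.5% in MEP, the knockout medians 39.7% and 39.2%, the wild type medians 50.9% and 51.0%, and the double mutant median 49.6%. Of 1076 CpGs in these windows, 1043 (96.9%) were higher in the Idh2 mutant, and in 243 windows every CpG was. The calls that chose these windows used the summed reads of the same CpGs, so these medians and shares are a description. By place, 15.2% of intron members and 13.6% of coding exon members were called, against 7.74% of intergenic ones. Shares of all windows by place are not given, so these cannot show a trait of the members. By wild type level, 19.2% of members at 20% to 35% and 16.7% at 35% to 50% were higher in the Idh2 mutant. At 50% to 65% the share was 14%, and at 65% to 80% it was 4.46%. Wild type levels chose the members, and a window at a higher level has less room to rise, so these shares are a description. Within the 272 windows 14.3% held the ETS motif and 13.2% the PU.1 motif, beside 9.37% and 7.19% of all members and 6.73% and 6.18% of all windows. Among other motifs counted, the E-box was in 51.8% (45.6% of members), RUNX in 52.2% (51.1%) and C/EBP in 29% (31%). Motifs were not tested. Leaving out 1 knockout library lowered the share called to 5.17% (GMP replicate 1), 5.55% (GMP replicate 2) or 5.32% (MEP replicate 1). Leaving out 1 Idh2 mutant library lowered it to 6.56% (GMP replicate 1) or 6.63% (GMP replicate 2). limma called 6.71%, edgeR 4.87% and the fit on the 4 compared groups alone 6.48%.

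The largest rise was in an intron of Lrrfip1, a nucleic acid binding regulator (chr1:92914001-92915000, 18697 bases from a start), whose sequence above holds 7 of its 9 measured CpGs. Its levels were 89.6% and 93.1% in Idh2 mutant GMP and 95.7% and 93.7% in Idh2 mutant MEP, and 36.8% and 50.3% in knockout GMP and 16.8% and 36.7% in knockout MEP. No Idh2 mutant library came near a knockout library. The difference was 57.9 points (adjusted p = 0.00183). All 9 CpGs took part, with means of 9.92% to 51.4% in knockout MEP and 84.6% to 100% in Idh2 mutant MEP. Wild type libraries lay between, at 69.8% to 85.2%, and double mutant libraries were at 91.5%, 92.0% and 94.5%, on the Idh2 mutant side.

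In Ccdc6, a coiled-coil protein gene known from fusions with the receptor gene Ret, an intron window had the same order among the single mutants and another in the double mutant (chr10:69615001-69616000). It stood at 79.7%, 84.3%, 78.3% and 94.5% in the Idh2 mutant libraries (GMP, then MEP), at 30.7%, 26.4%, 14.3% and 38.0% in the knockout, and at 10.7%, 25% and 5.8% in double mutant cells. Here the double mutant libraries lay on the knockout side. The Idh2 mutant exceeded the knockout by 56.9 points (adjusted p = 0.00251), and the double mutant was lower than Idh2 mutant MEP by a difference of -72.6 points (adjusted p = 0.00181). An intergenic window nearest to a small nuclear RNA gene U6 on chromosome 12 (57.1 points, adjusted p = 0.00126), 1 of Zbtb16, which encodes the transcription factor PLZF (50.5 points, adjusted p = 0.00257), and 1 of Nfix, a nuclear factor I gene (50.4 points, adjusted p = 0.00252), completed the 5 largest rises. In all 3 of these the double mutant was called lower than Idh2 mutant MEP. The U6 call against Idh2 mutant MEP was lost without Idh2 mutant MEP replicate 1 (-57.0 points, adjusted p = 0.0618).

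The 12 falls were smaller than the 5 largest rises. The largest was an intergenic window 46386 bases from a start of Lhx8, a LIM homeobox gene, with 71.8%, 73.5%, 77.1% and 78.7% in the knockout libraries and 26.2%, 67.2%, 32.9% and 38.4% in the Idh2 mutant. The values do not overlap, but Idh2 mutant GMP replicate 2 was far above its partners. The difference was -34.1 points (adjusted p = 0.036), and leaving out a library ended the call for each library but Idh2 mutant GMP replicate 2, with adjusted p from 0.0667 without Idh2 mutant MEP replicate 1 to 0.152 without knockout GMP replicate 1. An intron window of Fam107a, an actin-associated protein gene, differed by -32.4 points (adjusted p = 0.0264) and an intergenic one near Rptor, a subunit of the growth regulator mTORC1, by -27.9 points (adjusted p = 0.0233). The Fam107a call was lost without knockout GMP replicate 1 (adjusted p = 0.122) and the Rptor call without Idh2 mutant GMP replicate 2 (adjusted p = 0.168), among others.

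By cell type, 39 members were higher and 1 lower in Idh2 mutant than in knockout GMP (1.5%, beside 0.311% of all windows, 0.308% higher and 0.00342% lower). In MEP, 75 were higher and 6 lower (3.03%, beside 0.92% of all windows, 0.848% higher and 0.0718% lower). Whether the difference between these genotypes depended on cell type was tested as an interaction on the logit scale. The quasi-binomial model called 0 members, with 181 (6.78%, beside 6.23% of all windows) at an unadjusted p under 0.05 and a smallest adjusted p of 0.285.

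Double mutant cells were next compared with each single mutant MEP. The double mutant cells were malignant progenitors, so malignancy and the presence of both mutations cannot be told apart here. Against Idh2 mutant MEP, which lack Mx1-cre, they also differ in Cre. Both comparisons use the same 3 double mutant libraries, so their values are given side by side and their agreement is no evidence of its own. Against knockout MEP, 383 members were higher and 153 lower in the double mutant (20.1% of members, beside 12% of all windows). Against Idh2 mutant MEP, 294 were higher and 306 lower (22.5%, beside 12.8% of all windows). Rises were 10.5% of all windows against the knockout and 9.64% against the Idh2 mutant, beside 14.3% and 11% of members. Falls were 5.73% and 11.5% of members, beside 1.42% and 3.12% of all windows. A window under 10% cannot fall by 10 points, and 51.2% to 54.2% of all windows were under 20% in single mutant MEP libraries. The rule kept windows with room to fall, so the larger shares of falls in members, here and below, are a description only. Among low distal windows 23.8% and 24.2% were called, mostly rises, among high ones 3.63% and 6.74%, and among intermediate windows near starts 28.2% and 28.7%. The median difference of the members was 2.48 points against the knockout and 1.16 points against the Idh2 mutant, beside an SD of 1.88 points between library medians of a group. The first was 0.36 points when knockout MEP replicate 1 was left out and 4.6 points when replicate 2 was. Without knockout MEP replicate 1 the first share fell to 7.46%, and without Idh2 mutant MEP replicate 2 the second fell to 10%, in each case with 1 library left in that group. edgeR called 12.7% and 14.5%.

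**Figure D2:**
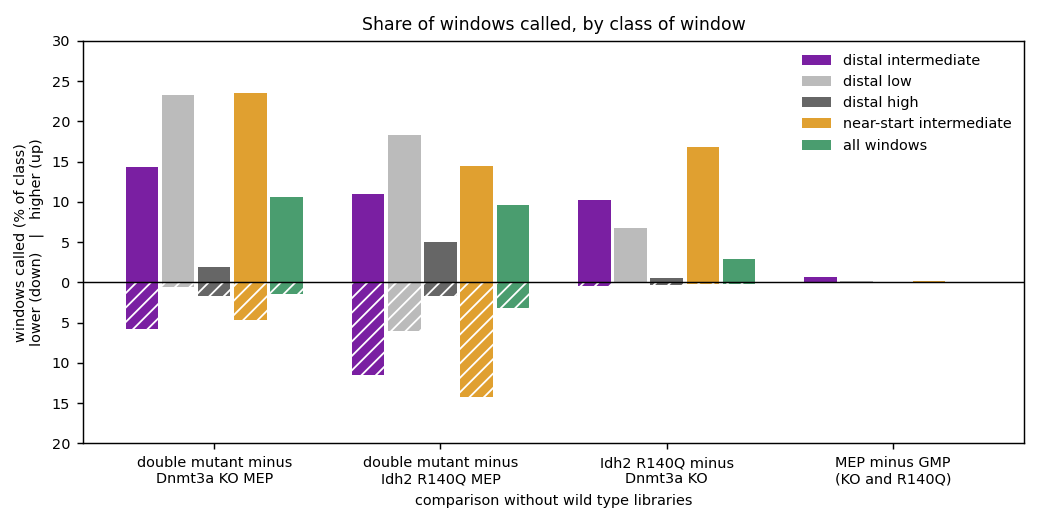
Share of windows (%) called higher (solid, upwards) and lower (hatched, downwards) in the 4 comparisons without wild type libraries, for 5 classes of windows named in the legend. The double mutant is lower in 5.73% and 11.5% of members against the knockout and the Idh2 mutant, and in 0.537% and 6% of low distal windows.

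In 190 members the double mutant was called higher than both single mutants, which is 7.12% of members and close to the 7.45% of all windows. In 100 it was lower than both (3.75%, beside 0.94% of all windows), while 2 were higher than the knockout and lower than the Idh2 mutant (0.0749%, beside 0.0308%). A further 191 were higher than the knockout alone (7.16%, beside 3.06%) and 204 lower than the Idh2 mutant alone (7.64%, beside 2.15%). Another 53 were lower than the knockout alone (1.99%, beside 0.475%) and 104 higher than the Idh2 mutant alone (3.9%, beside 2.18%), and 1825 had no call (68.4%, beside 83.7%). The calls chose these sets, so their medians are a description, and all these counts include knockout MEP replicate 1. In the 190 windows the medians were 42.3% in knockout MEP, 43.0% in Idh2 mutant MEP, 50.5% in wild type MEP and 78.7% in the double mutant. In the 100 windows they were 66.4%, 77.8%, 62.2% and 36.9%. In the 204 windows lower than the Idh2 mutant alone, the medians were 38.1% in the double mutant, 44.8% in knockout MEP and 72.7% in Idh2 mutant MEP. In the 191 higher than the knockout alone, the double mutant median of 75.9% compared with 65.7% in Idh2 mutant MEP and 40.3% in knockout MEP.

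**Figure D3:**
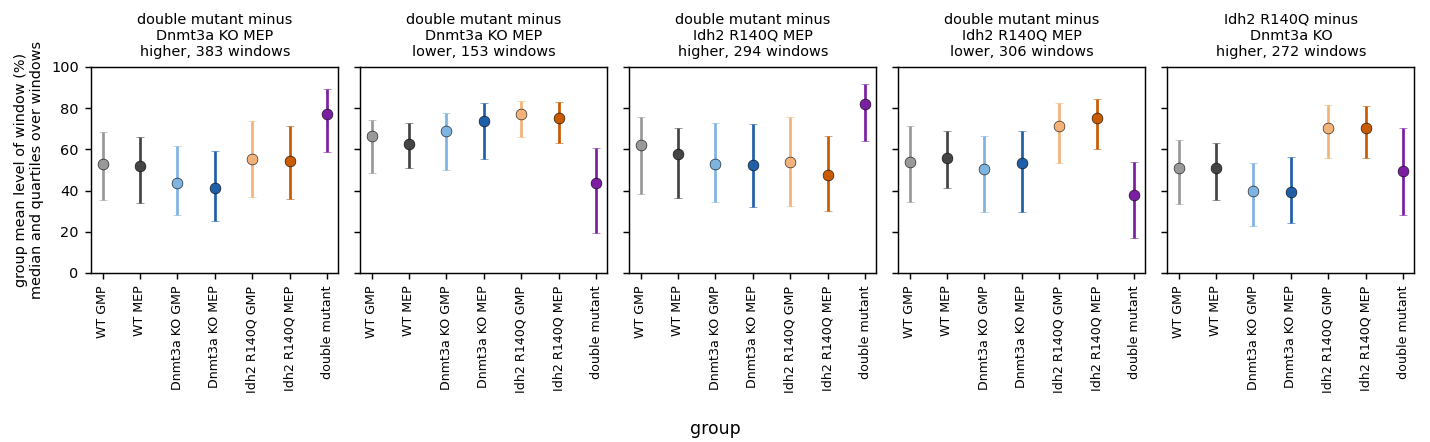
Group mean level (%) of the windows called in 5 sets, as median (point) and quartiles (bars) over windows in each of the 7 groups. In windows called higher in the double mutant than in Idh2 mutant MEP its median is 81.9%, and in those called lower 37.6%, while the single mutants stay between 47.6% and 75.4%. The calls chose these windows, so the medians are a description.

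Several of the largest rises of the double mutant reached nearly full methylation. An intergenic window 17412 bases from a start of Begain, which encodes a protein of the postsynaptic density (chr12:110309001-110310000), had 93.6%, 86.8% and 87.7% in the double mutant. It had 21.6% and 22.6% in knockout MEP and 45.2% and 33.6% in Idh2 mutant MEP. Every other library of the study lay at or under 45.2%. The differences were 67.2 points (adjusted p = 1.63e-05) and 50 points (adjusted p = 0.000142). At 3 of its 4 CpGs the double mutant had 72.9% to 89.8%, against 1.96% to 13.2% in knockout MEP and 28.1% to 35.2% in Idh2 mutant MEP. The CpG at position 110309389 had 98.2% in the double mutant, 100% in knockout MEP and 67.8% in Idh2 mutant MEP.

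In the exon window of A930038B10Rik (chr14:35583001-35584000), double mutant levels were 71.7%, 81.4% and 64.5%. Knockout MEP had 15.4% and 12.3%, Idh2 mutant MEP 3.4% and 2.5%, and wild type MEP 33.6% and 40.0%. Both single mutants were under wild type, and the double mutant above it. The differences were 58.7 points (adjusted p = 0.000158) and 69.6 points (adjusted p = 0.000118), and all 5 CpGs moved the same way. A coding exon of Jakmip2, a gene for a microtubule-associated protein, had 99.0%, 95.5% and 94.7% in the double mutant, 5.3% and 53.5% in knockout MEP and 13.6% and 16.2% in Idh2 mutant MEP. The 2 knockout libraries were far apart, yet both lay under the double mutant (66.9 points, adjusted p = 0.00227, and 81.5 points against Idh2 mutant MEP, adjusted p = 0.00333). Near Chrna4, a subunit of the nicotinic acetylcholine receptor, the double mutant had 92.0%, 92.6% and 92.4%, knockout MEP 28.7% and 39.7%, and Idh2 mutant MEP 32.9% and 23.4%. The differences there were 58.1 points (adjusted p = 0.00015) and 64.2 points (adjusted p = 0.00017).

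Other large rises were those near Gm17718 and AL845460.1 against the knockout (65.1 points, adjusted p = 0.000898, and 65.2 points, adjusted p = 0.00526). Against the Idh2 mutant, a coding exon of Gpr179, a receptor gene of the retina, rose by 65.6 points (adjusted p = 0.000658) and the Fam107a intron by 67.0 points (adjusted p = 0.000536). The Lrrfip1 window, already described, differed from knockout MEP by 65.9 points (adjusted p = 0.000167) and from Idh2 mutant MEP by -2.0 points, which was not called (adjusted p = 0.851).

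Several of the largest falls ended near 0. An intron window of Fbxo31, an F-box subunit of a ubiquitin ligase (chr8:124094001-124095000), had 3.8%, 2.7% and 0.9% in the double mutant. Knockout MEP had 66.0% and 66.7%, Idh2 mutant MEP 93.1% and 82.7%, and wild type MEP 57.5% and 45.1%. The double mutant lay under all 12 other libraries, whose lowest value was 19.6%. The differences were -63.8 points (adjusted p = 9.35e-05) and -85.4 points (adjusted p = 6.26e-05), and all 4 CpGs were at 0.952% to 3.34% in the double mutant. In Fry, a microtubule-binding protein gene, an intron window had 1.5%, 2.1% and 3.9% in the double mutant, 32.2% and 67.0% in knockout MEP and 85.1% and 88.3% in Idh2 mutant MEP (-47.1 points, adjusted p = 0.000478, and -84.3 points, adjusted p = 0.000189). An intergenic window near Tnrc6a, a gene of microRNA silencing, had 9.0%, 12.5% and 3.7%, against 51.8% and 75.2% in knockout MEP and 73.7% and 72.9% in Idh2 mutant MEP (-55.2 points, adjusted p = 0.000138, and -65.0 points, adjusted p = 0.000118).

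A coding exon of Rcn3, a calcium-binding protein of the endoplasmic reticulum, had 20.9%, 11.5% and 3.8% in the double mutant, 55.2% and 45.5% in knockout MEP and 87.0% and 82.5% in Idh2 mutant MEP. The differences were -38.2 points (adjusted p = 0.000669) and -72.7 points (adjusted p = 0.000106). Windows near Gm13876 (-55.8 points, adjusted p = 0.00043) and Adra2c, an adrenergic receptor gene (-53.6 points, adjusted p = 0.00169), and in an intron of Mapk4, an atypical MAP kinase gene (-58.3 points, adjusted p = 0.000591), were lower than in knockout MEP. All 3 were also lower than Idh2 mutant MEP, with differences of -47.6, -58.4 and -59.9 points. An intron window of Nceh1, a cholesterol ester hydrolase gene, differed from Idh2 mutant MEP by -72.8 points (adjusted p = 0.00399).

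The window 8422 bases from a start of Il10, which encodes an anti-inflammatory cytokine (chr1:132907001-132908000), spanned the widest range. Double mutant libraries had 4.9%, 0.5% and 0.0%, the last from 0 of 123 reads, which allows up to 2.44% by counting error. Idh2 mutant MEP had 95.4% and 99.0%, knockout MEP 26.4% and 25.9%, and the wild type MEP libraries 22.4% and 75.3%, far from each other. The difference from Idh2 mutant MEP was -95.4 points (adjusted p = 0.012) and that from knockout MEP -24.4 points, which was not called (adjusted p = 0.13). The call was lost without Idh2 mutant MEP replicate 1 (adjusted p = 0.132), Idh2 mutant MEP replicate 2 (adjusted p = 0.0611) or double mutant replicate 1 (adjusted p = 0.0712), at differences of -97.2, -93.6 and -97.0 points.

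**Figure D4:**
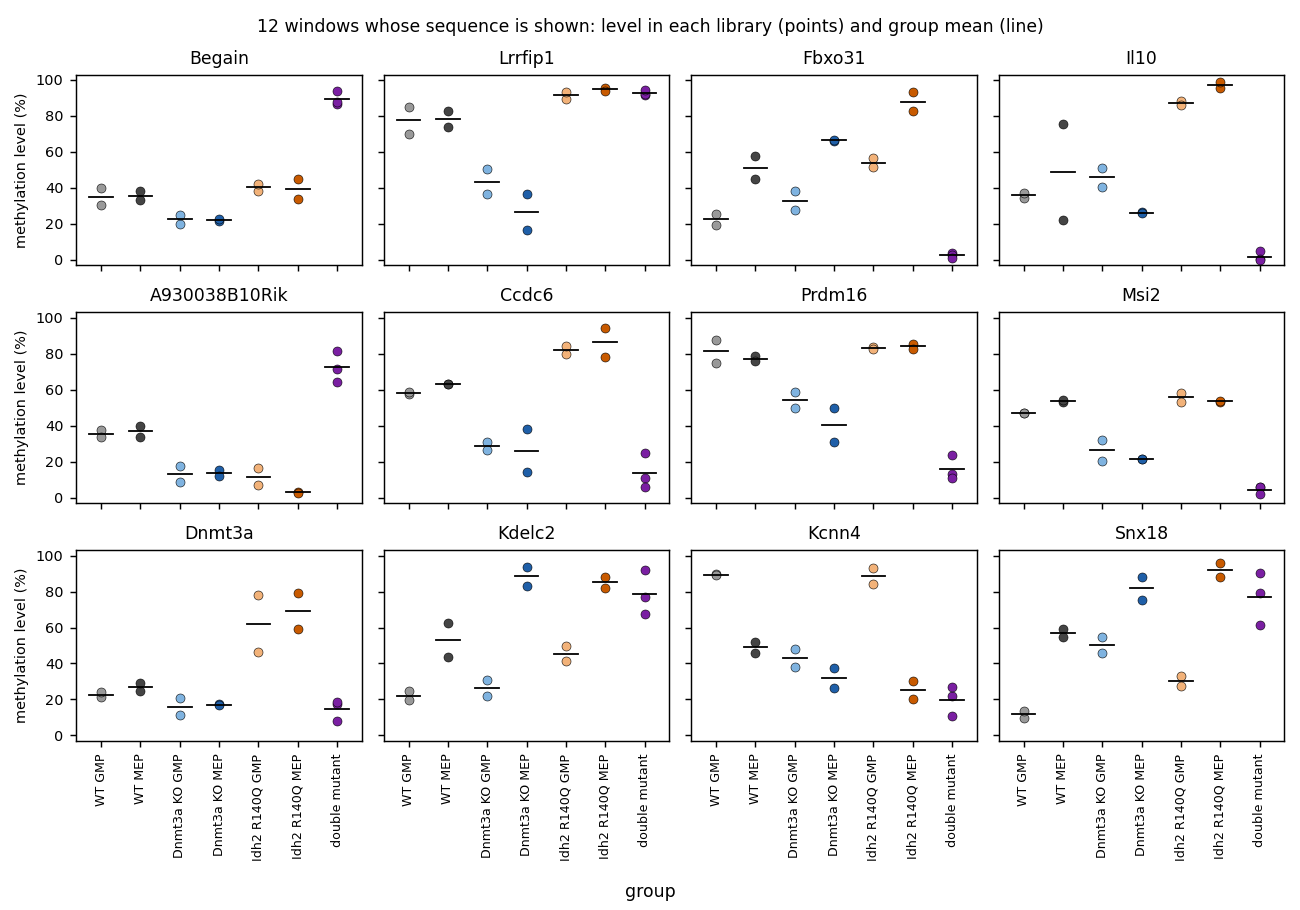
Methylation level (%) of 12 windows, named by gene, in each library (points) with group means (lines) for the 7 groups. In Begain and A930038B10Rik the double mutant lies above every other library, in Fbxo31 and Il10 below every other library, and in Lrrfip1 beside the Idh2 mutant.

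By counts of CpGs, 91.8% of 1675 CpGs in windows called higher than knockout MEP were higher in the double mutant, and 83% of 569 in windows called lower were lower. Against Idh2 mutant MEP the shares were 91.3% of 1317 and 88.3% of 1184. The windows were called from the summed reads of these same CpGs, so high shares follow in part from the call. Of the 306 windows lower than Idh2 mutant MEP, 39.9% were in introns, beside 29.3% of all members and 24% of all windows. The ETS motif was in 16.7% of them, beside 9.37% of members and 6.73% of all windows. Among other motifs counted, AP-1 was in 28.4% (22.3% of members), PU.1 in 7.52% (7.19%), C/EBP in 31% (31%) and MYB in 4.58% (6.26%). Motifs were not tested, and these shares are a description.

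Genes of blood stem cells held several members. Of 32 genes of stem and early progenitor cells, 8 had a member, with 18 windows in all. In 9 of the 18 the Idh2 mutant was called higher than the knockout and in 0 lower, beside 10.2% of members and 2.9% of all windows called higher, with a median difference of 19.11 points beside 3.14 over all members. The double mutant was called lower than Idh2 mutant MEP in 7, beside 11.5% of members and 3.12% of all windows, and higher in 0 (median -16.5 points beside 1.16). Against knockout MEP it was higher in 4, beside 14.3% and 10.5%, and lower in 2, beside 5.73% and 1.42% (median 1.35 points beside 2.48). Leaving out each library in turn, 4 of the 9 calls, 3 of the 7 and 2 of the 6 were kept every time. Windows of 1 gene share a locus and are not independent, and the 9 calls lay in or near Prdm16, Gata2, Msi2 and Hmga2 alone. This list and those below were chosen with earlier results of these data known. Their counts are therefore a description and cannot show whether such genes differ from other members.

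Prdm16, a transcription factor needed for the upkeep of blood stem cells, held 5 of them, all in its introns. At the one printed above (chr4:153960001-153961000) Idh2 mutant libraries had 84.0%, 82.9%, 85.5% and 82.9%, knockout libraries 50%, 58.5%, 31.1% and 50%, and double mutant libraries 13.4%, 11.1% and 23.9%. The 3 groups did not overlap. The Idh2 mutant exceeded the knockout by 36.4 points (adjusted p = 0.00194), and the double mutant differed from Idh2 mutant MEP by -68.1 points (adjusted p = 0.000177) and from knockout MEP by -24.4 points (adjusted p = 0.0228). The last call was lost without knockout MEP replicate 2 (-15.0 points, adjusted p = 0.136), double mutant replicate 1 (adjusted p = 0.0676) or double mutant replicate 2 (adjusted p = 0.0995). Another intron window at chr4:153915001-153916000 had 78.9%, 80.3%, 77.6% and 77.7% in the Idh2 mutant, 41.4%, 43.3%, 28.4% and 42.6% in the knockout and 36.1%, 47.1% and 35% in the double mutant. There the double mutant overlapped the knockout (3.9 points, adjusted p = 0.871) and was lower than Idh2 mutant MEP (-38.3 points, adjusted p = 0.000946). The window at chr4:153874001-153875000 went the other way, with 68.4%, 66.6% and 66.1% in the double mutant against 30.5% and 50.4% in knockout MEP (26.6 points, adjusted p = 0.00377). That call was lost without knockout MEP replicate 1 (16.6 points, adjusted p = 0.0905).

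Msi2, an RNA-binding protein of stem cells, held 3. Its window at chr11:88552001-88553000 had 58.2%, 53.2%, 53.4% and 53.8% in the Idh2 mutant, 20.4%, 32.2%, 21.7% and 21.5% in the knockout, and 5.8%, 5.8% and 1.9% in the double mutant. Wild type libraries, at 46.8% to 54.2%, were next to the Idh2 mutant. The Idh2 mutant exceeded the knockout by 30.7 points (adjusted p = 0.00155), and the double mutant differed from knockout MEP by -17.1 points (adjusted p = 0.00269) and from Idh2 mutant MEP by -49.1 points (adjusted p = 7.31e-05). Hmga2, a chromatin protein of fetal stem cells, had an intron window at chr10:119859001-119860000 with 81.0%, 73.4% and 77.4% in the double mutant and 28.9% and 41.6% in knockout MEP (42.0 points, adjusted p = 0.000191). Idh2 mutant MEP had 75% and 59.4% there, and the Idh2 mutant again exceeded the knockout (32.2 points, adjusted p = 0.00277), but the double mutant lay on the Idh2 mutant side. At Gata2, a transcription factor of stem and early erythroid cells, a coding exon window 3343 bases from a start had 2.0%, 5.3% and 4.7% in the double mutant and 20.2% and 15.1% in Idh2 mutant MEP (-13.6 points, adjusted p = 0.0133). Without Idh2 mutant MEP replicate 1 that call was lost (-11.1 points, adjusted p = 0.0592). An intergenic window nearest to Gata2 (chr6:88102001-88103000) went the other way against the knockout, with 47.6%, 63.2% and 44.6% in the double mutant and 5.3% and 29.4% in knockout MEP (34.5 points, adjusted p = 0.0343, and 0.32 without knockout MEP replicate 1).

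Among 32 genes of leukaemia and signalling, 4 had members, with 7 windows. The Idh2 mutant was higher than the knockout in 5, beside 10.2% of members and 2.9% of all windows. The double mutant was lower than Idh2 mutant MEP in 5, beside 11.5% and 3.12%, and higher in 1, beside 11% and 9.64%. All 5 calls of the first comparison and 4 of the 6 of the second were kept with each library left out in turn, and that of Bcl6 was lost without Idh2 mutant MEP replicate 2 (adjusted p = 0.204), among others. Of these windows 3 lay in introns of Nfix, 2 in introns of Zbtb16 and 1 near Bcl6, a repressor gene. Those of 1 gene are again not independent. At chr8:87269001-87270000 in Nfix the levels were 65.4%, 66.4%, 66.7% and 55.2% in the Idh2 mutant, 35.2%, 34.2%, 28.4% and 34.8% in the knockout and 18.4%, 14.1% and 11.1% in the double mutant. The double mutant was under every other library there, and differed from Idh2 mutant MEP by -46.4 points (adjusted p = 5.95e-05) and from knockout MEP by -17.0 points (adjusted p = 0.00489). At chr8:87308001-87309000, in the same gene, it had 25.1%, 27.0% and 17.8%, beside 19.4% and 37.5% in knockout MEP and 68.9% and 84.8% in Idh2 mutant MEP. In the Zbtb16 window at chr9:48631001-48632000 the double mutant had 13.3%, 13.8% and 25.3%, and Idh2 mutant MEP 81.2% and 91.3% (-68.8 points, adjusted p = 0.00051).

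Of 17 genes of DNA methylation and Idh enzymes, Dnmt3a itself had the only member, in an intron 4810 bases from a start (chr12:3871001-3872000). A methylation level does not check the deletion of the gene. The window had 46.2%, 77.8%, 59.1% and 79.2% in the Idh2 mutant, 11.4%, 20.6%, 17.4% and 16.7% in the knockout, 17.6%, 18.5% and 8.3% in the double mutant and 21.3%, 24.2%, 24.5% and 29.3% in wild type. All Idh2 mutant libraries lay above all others. The Idh2 mutant exceeded the knockout by 49.0 points (adjusted p = 0.00277), and the double mutant differed from Idh2 mutant MEP by -54.4 points (adjusted p = 0.00375).

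Lists of erythroid, granulocyte and lymphoid genes held fewer members than that of stem cell genes (2, 6 and 7 beside 18), so fewer calls were possible. Of all members 10.2% were called higher in the Idh2 mutant than in the knockout, beside 2.9% of all windows. For the double mutant lower than Idh2 mutant MEP the shares were 11.5% and 3.12%, and for lower than knockout MEP 5.73% and 1.42%. Of 34 erythroid and megakaryocyte genes 2 had members (Ermap and Zfpm1) and neither was called without wild type libraries. Of 33 granulocyte and macrophage genes, 2 had members. Windows near Irf8, a transcription factor of monocytes, numbered 5. They lay 107892 to 149892 bases from its start and had no call, while a coding exon of Ltf, which encodes lactoferrin, was lower in the double mutant than in Idh2 mutant MEP (-25.6 points, adjusted p = 0.0033, and -20.5 points, adjusted p = 0.0823, without Idh2 mutant MEP replicate 2). Of 30 lymphoid genes 6 had members, with 7 windows, of which 2 in Bach2, a transcription factor of lymphocytes, were higher in the Idh2 mutant than in the knockout (23.7 points, adjusted p = 0.0379, and 19.8 points, adjusted p = 0.0275). Both of these calls were lost without single libraries, such as knockout MEP replicate 1 (adjusted p = 0.144 and 0.152). The second of these Bach2 windows (chr4:32474001-32475000) was also lower in the double mutant than in Idh2 mutant MEP (-28.9 points, adjusted p = 0.00541, and 0.125 without Idh2 mutant MEP replicate 2). Of 36 imprinted genes 4 had members, 1 window each, and an intron of the potassium channel gene Kcnq1 was lower in the double mutant than in both single mutants, with differences of -17.4 and -16.0 points (adjusted p = 0.00498 and 0.0118). The first of these was lost without knockout MEP replicate 1 (adjusted p = 0.147) and the second without either Idh2 mutant MEP library (adjusted p = 0.0528 and 0.054).

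MEP and GMP differed at few members. Over knockout and Idh2 mutant together, 17 windows were higher in MEP and 1 lower (0.674% of members, beside 0.0991% of all windows, 0.0889% higher and 0.0103% lower). The median difference of all members was -0.74 points. The calls rest on few libraries: leaving out Idh2 mutant MEP replicate 2 left 0.0375% and leaving out knockout GMP replicate 1 left 0.15%. The share was 0.3% when knockout MEP replicate 1, Idh2 mutant GMP replicate 1 or Idh2 mutant MEP replicate 1 was left out, 0.375% for Idh2 mutant GMP replicate 2 and 0.412% for knockout GMP replicate 2. limma called 3 members and edgeR 0, beside 233 members (8.73%, and 4.8% of all windows) at an unadjusted p under 0.05 in the quasi-binomial model.

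The largest difference was in a coding exon of Kdelc2, which encodes a protein of the endoplasmic reticulum (chr9:53198001-53199000). Knockout GMP had 21.9% and 30.7% and knockout MEP 93.9% and 83.2%, and Idh2 mutant GMP had 41.3% and 49.6% and Idh2 mutant MEP 82.1% and 88.1%. The difference was 50.9 points (adjusted p = 0.0142, and up to 0.088 without Idh2 mutant MEP replicate 2). In Snx18, a sorting nexin gene, an intron window (chr13:114404001-114405000) had 45.7% and 54.5% in knockout GMP, 75.5% and 88.3% in knockout MEP, 27.5% and 33.3% in Idh2 mutant GMP and 88.2% and 95.7% in Idh2 mutant MEP (46.7 points, adjusted p = 0.022, and up to 0.204 without Idh2 mutant MEP replicate 2). The window near Sdad1 differed by 44.6 points (adjusted p = 0.00271) and kept its call without each library in turn, with an adjusted p of at most 0.042. Windows of Rbms1, an RNA-binding protein gene, and Slc26a8, an anion transporter gene, differed by 39.4 and 37.6 points (adjusted p = 0.00853 and 0.0164, and up to 0.0575 and 0.22 without Idh2 mutant MEP replicate 2). The only fall was in a coding exon of Kcnn4, a calcium-activated potassium channel of red cells (chr7:25162001-25163000), with 47.9% and 38.0% in knockout GMP, 26.4% and 37.5% in knockout MEP, 84.0% and 93.3% in Idh2 mutant GMP and 30.2% and 20.5% in Idh2 mutant MEP. Its difference was -37.1 points (adjusted p = 0.0106, and up to 0.198 without Idh2 mutant GMP replicate 1). The Kcnn4 means went from 43.0% in GMP to 32.0% in MEP in the knockout and from 88.7% to 25.3% in the Idh2 mutant.

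In the wild type libraries, which this comparison did not use but whose mean chose the windows, all 17 were higher in MEP than in GMP and the Kcnn4 window was lower. At Rbms1, for example, wild type GMP had 5.9% and 6.6% and wild type MEP 48.6% and 38.6%. At Kcnn4 wild type GMP had 89.6% and 89.1% and wild type MEP 46.0% and 51.9%. Medians of the 17 windows were 20.5% in wild type GMP and 54.0% in wild type MEP, 43.7% and 81.9% in the knockout and 48.3% and 90.6% in the Idh2 mutant. Double mutant cells, sorted by MEP markers, had a median of 84.8% in them, and 77.2%, 91.8% and 67.4% at Kdelc2. In 4 of the 17 the double mutant was called lower than Idh2 mutant MEP: Fbxo31, with a mean of 2.48% against 87.9%, Rbms1 (51.4% against 88.1%), AC165333.1 (64.5% against 81.5%) and Slc25a15 (80.6% against 93.1%). Fbxo31 was also called lower than knockout MEP, at 66.3%.

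**Figure D5:**
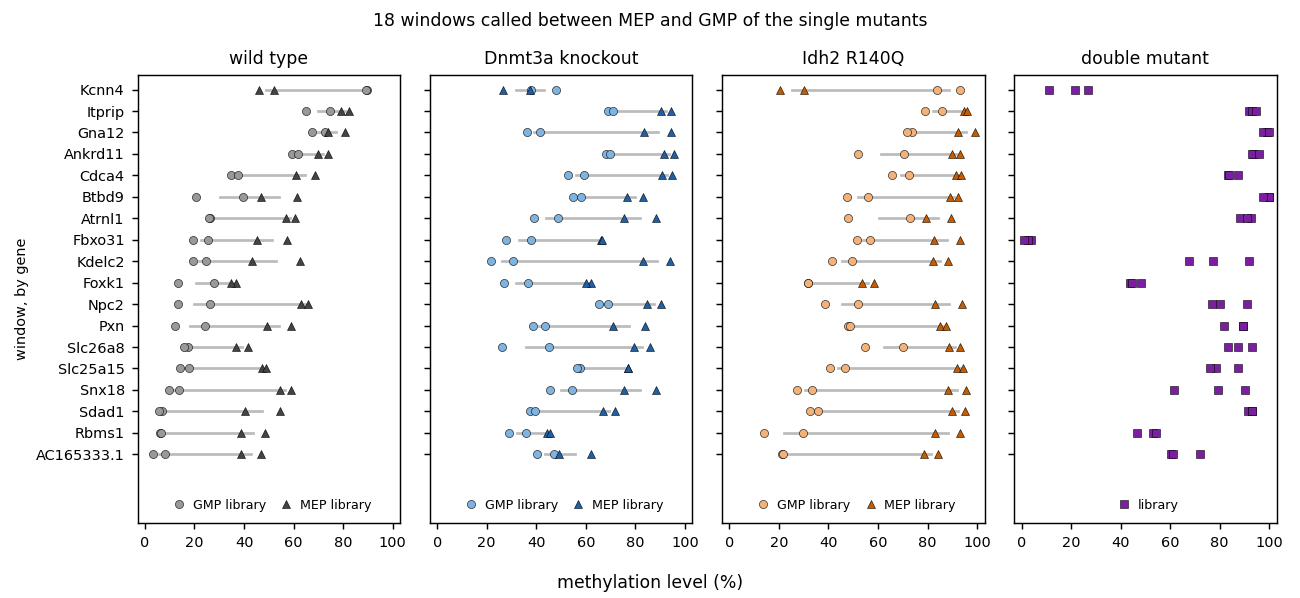
Methylation level (%) of the 18 windows called between MEP and GMP of the single mutants, by gene (rows, ordered by the wild type GMP mean), in each library of wild type, Dnmt3a knockout, Idh2 mutant and double mutant; circles are GMP, triangles MEP, squares double mutant libraries, and grey lines join group means. Kcnn4 is the only window lower in MEP, and Fbxo31 is the only one with double mutant libraries near 0.

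Comparisons with wild type use the values that chose the windows, and nothing is read from their counts. Against wild type over both cell types, 86 members were higher and 71 lower in the knockout (5.88%, beside 1.07% of all windows, 0.417% higher and 0.653% lower). In the Idh2 mutant 303 were higher and 40 lower (12.9%, beside 2.81%, 2.35% higher and 0.462% lower). Against wild type MEP, 487 were higher and 189 lower in the double mutant (25.3%, beside 13.2%, 11.4% higher and 1.8% lower). Between wild type MEP and GMP, 13 were higher and 1 lower in MEP (0.525%, beside 0.0615%, 0.0547% higher and 0.00684% lower). The medians of these differences were 0.36, 4.47, 4.09 and -0.94 points, and the first and the last are smaller than the SD of 1.88 points between library medians of a group.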

How the data were processed

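The 15 RRBS libraries were analysed from 1 table each, as the authors deposited them. Alignment used BSMAP 2.74 and mm9, per the submitters' processing notes. Each cytosine has deposited counts of its methylated and of its total reads, none above 65535, which were used here. The deposited methylation fraction of each cytosine was not used further. Columns for reads of the opposite strand are empty, so a C-to-T difference from the reference reads as unmethylated. Trimming, duplicate removal and the conversion rate were not given in the sources used here, and duplicates make read counts overstate the number of molecules.

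Strands were added. The 241527 CpGs that reached 10 reads in every library all fell on CG in NCBIM37. Windows of 1 kb were placed with GENCODE vM1, leaving out 2 gene models over 3000000 bases. A window carries the gene that holds it or else that with the nearest start. The model was a quasi-binomial logistic fit with 7 group means, 8 residual degrees of freedom, 0.5 reads added to the methylated and to the unmethylated reads, and window dispersions shrunk towards a shared one, with 4.09 prior degrees of freedom and a median of 2.11. It was checked on simulated data that gave all windows and groups 1 shared spread, so the check does not cover those with a wider spread. Depth and spread limit precision: at a typical member, read counting gives an SD of 3.54 points.

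Named windows are, per comparison without wild type libraries, the 5 largest rises and falls among called windows with no overlap of library values, 1 at most in 10 kb, as well as called windows of the gene lists, the 5 smallest and 5 largest ranges, and windows next to the bounds. One of these windows is counted but not reported by name here. The members and the gene lists were chosen with earlier results of these data known. Alternatives were 20 reads per CpG, 500 bp windows, 5 CpGs, limma 3.58.1 and edgeR 4.0.16 (R 4.3.3), the compared groups alone, the replicate number as a block, a difference of 25 points, equal weight per CpG, bounds of 30% and 70%, 10 kb from a start, windows chosen by wild type GMP alone, and each library left out in turn. Computation used pysam 0.24.0, pandas 2.3.3, scipy 1.17.1, numpy 2.4.6 and matplotlib 3.10.9 under Python 3.11.15.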

Additional observations from a re-analysis of the deposited data

How the results depend on the processing

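Shares are percentages of members called. Against the reported 20.1% (double mutant against knockout MEP) and 22.5% (against Idh2 mutant MEP), edgeR gave 12.7% and 14.5%, and a difference of 25 points 12.1% and 13.9%. For Idh2 mutant against knockout (10.6%), limma gave 6.71%, edgeR 4.87%, the compared groups alone 6.48% and 25 points 5.92%. For MEP against GMP of the single mutants (0.674%), limma gave 0.112%, edgeR 0% and the compared groups alone 0.225%. In comparisons with wild type, the same 4 settings gave 0.674%, 0.187%, 2.02% and 2.29% for the knockout (5.88%), 4.31%, 2.44%, 7.04% and 4.91% for the Idh2 mutant (12.9%), and 16.3%, 14.4%, 15.1% and 11.9% for the double mutant (25.3%). For wild type MEP against GMP (0.525%), limma, edgeR and the compared groups alone gave 0% and 500 bp windows 0.285%. Leaving out a library tests fewer samples, and a lone sample is assumed to vary like the other groups. It gave 7.46% to 15.9% and 10% to 17.3% for the double mutant against the single mutants, 5.17% to 11.1% for Idh2 mutant against knockout, 0.0375% to 0.45% for MEP against GMP, and, with wild type, 1.76% to 6.33%, 5.99% to 9.68%, 17.7% to 18.6% and 0% to 0.074%.

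With the replicate number as a block, MEP against GMP fell to 0.412% (11 windows) and wild type MEP against GMP to 0.0749%, while the double mutant comparisons gave 17.1% and 19% and Idh2 mutant against knockout 11.5%. Same-numbered GMP and MEP libraries deviated together in wild type (correlation over windows 0.361) and the Idh2 mutant (0.51) but not in the knockout (-0.04). The labels do not say whether they share a source, and the main fit took all libraries as separate samples. If they do, p-values of Idh2 mutant against knockout may be too small. For that comparison the block shared each number across genotypes, so it does not test this. The block ended the calls between MEP and GMP of Kdelc2, Snx18 and Kcnn4 (adjusted p = 0.0796, 0.108 and 0.0996).

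Small medians changed sign. Leaving out a library gave medians of -1.67 to 0.36 points for MEP minus GMP of the single mutants (highest without knockout MEP replicate 1), -2.42 to 0.27 for wild type MEP minus GMP (highest without wild type MEP replicate 1) and -0.70 to 1.43 for knockout minus wild type (-0.70 without knockout MEP replicate 2, -0.26 without wild type MEP replicate 1). The last was also -0.33 at 5 CpGs and -0.70 at bounds of 30% and 70%. The cause of these changes was not tested. Of 107 calls of named windows, 57 were kept under every alternative, 47 were lost on leaving out a library, 34 with edgeR, 22 with limma, 26 with the compared groups alone and 9 with the block, and 0 reversed.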
